A study of Homo sapiens with 7 samples.

Results

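Genes of the secretory pathway and of membrane trafficking were taken as those whose symbol belongs to 10 families: RAB, SEC, SPCS, the COPI subunits (COPA, COPB, COPE, COPG and COPZ), ARF, VPS, TMED, SNX, STX and VAMP. The lists of regions with changed chromatin accessibility were pooled, and a region was a member where the authors' annotation gave such a gene as the nearest. This gave 98 of 8815 listed regions, at 74 genes, of which 70 are protein-coding, 3 are long non-coding RNA genes and 1 is a pseudogene in RefSeq. Of the 98 regions, 96 were increased and 2 were decreased.

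The data are ATAC-seq profiles, in which a transposase cuts open chromatin, of Kasumi-1 cells, an acute myeloid leukaemia line with the RUNX1-RUNX1T1 fusion. In the PHF19 knockdown (3 libraries) a lentiviral shRNA was directed against PHF19, an accessory protein of Polycomb repressive complex 2. In the control (4 libraries) the cells received a scrambled shRNA. Both groups were selected with puromycin at 2 µg/ml from 48 hours after the shRNA, for no less than 24 hours, and 10000 cells went into each library. The labels describe a lentiviral vector that also carries green fluorescent protein and puromycin resistance, and do not say how many hairpins were used or whether libraries came from separate cultures. The deposited p-values therefore rest on variation among these libraries alone, and this variation may be technical. Neither PHF19 levels nor markers of the line can be checked from lists that hold changed regions alone.

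Secretory proteins enter the endoplasmic reticulum (ER) through the SEC61 channel, where the signal peptidase removes the signal peptide. COPII-coated vesicles then carry them to the Golgi, COPI-coated vesicles return material to the ER, and p24 (TMED) proteins act as cargo receptors between these compartments. Small GTPases of the ARF and Rab families recruit coats, tethers and motors, SNARE proteins (syntaxins and VAMPs) fuse the membranes, and VPS proteins and sorting nexins sort cargo in endosomes. Myeloid cells rely on these steps to fill and release granules, a process in which RAB27A is well known.

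For each region the authors' deposited tables give the mean normalised read count of each group, a log2 fold of knockdown over control, and a false discovery rate (FDR). Every such value below is the authors' own, from the authors' deposited table, and has no SD or n per library. In all 98 member regions the deposited log2 fold lay nearer 0 than the difference of the log2 group means. The folds below are therefore smaller in size than the printed means alone would give. Read depth per library is unknown here. Coordinates are those of the files, read as hg19, and promoter regions are those that the authors' annotation names so, up to 3 kb from a transcription start.

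The promoters of member genes in 6 role groups are shown because a strongly increased region lay over, or for SPCS3 also beside, their start. Each is the RefSeq sequence of build GRCh38.p14 from 250 bases before to 50 bases after the start, 5′ to 3′ on the gene's strand, and the capitals mark matches to the short motifs described further on. RefSeq places them at chr4:176319716-176320015 (plus strand) for SPCS3, chr7:93232116-93232415 (plus) for VPS50, chr5:115625987-115626286 (minus) for TMED7-TICAM2, chr11:83071816-83072115 (plus) for RAB30-DT, chr7:130668699-130668998 (minus) for COPG2 and chr7:127588161-127588460 (plus) for ARF5.
SPCS3: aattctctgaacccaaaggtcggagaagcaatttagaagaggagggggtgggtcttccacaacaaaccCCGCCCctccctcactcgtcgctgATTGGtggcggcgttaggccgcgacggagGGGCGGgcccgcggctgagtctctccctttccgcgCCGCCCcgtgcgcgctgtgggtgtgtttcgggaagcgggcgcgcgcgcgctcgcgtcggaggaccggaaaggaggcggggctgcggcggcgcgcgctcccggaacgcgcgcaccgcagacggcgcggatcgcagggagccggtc
VPS50: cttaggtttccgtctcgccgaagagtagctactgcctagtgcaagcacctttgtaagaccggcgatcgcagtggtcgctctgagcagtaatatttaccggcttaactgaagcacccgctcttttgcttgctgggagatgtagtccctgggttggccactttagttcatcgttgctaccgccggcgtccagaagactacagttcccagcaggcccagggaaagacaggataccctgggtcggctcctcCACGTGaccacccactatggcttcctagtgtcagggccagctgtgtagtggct
TMED7-TICAM2: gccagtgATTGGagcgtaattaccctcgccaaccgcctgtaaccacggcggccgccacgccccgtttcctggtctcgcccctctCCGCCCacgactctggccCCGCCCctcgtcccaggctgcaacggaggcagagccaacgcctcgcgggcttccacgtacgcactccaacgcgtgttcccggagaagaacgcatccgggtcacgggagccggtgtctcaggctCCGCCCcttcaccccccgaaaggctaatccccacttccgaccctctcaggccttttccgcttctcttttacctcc
RAB30-DT: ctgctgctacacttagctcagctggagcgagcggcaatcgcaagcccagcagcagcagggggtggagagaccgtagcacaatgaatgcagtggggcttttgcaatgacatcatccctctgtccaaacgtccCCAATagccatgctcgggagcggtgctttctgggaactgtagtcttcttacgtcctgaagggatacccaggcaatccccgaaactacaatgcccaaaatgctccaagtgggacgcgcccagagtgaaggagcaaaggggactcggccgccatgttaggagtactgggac
COPG2: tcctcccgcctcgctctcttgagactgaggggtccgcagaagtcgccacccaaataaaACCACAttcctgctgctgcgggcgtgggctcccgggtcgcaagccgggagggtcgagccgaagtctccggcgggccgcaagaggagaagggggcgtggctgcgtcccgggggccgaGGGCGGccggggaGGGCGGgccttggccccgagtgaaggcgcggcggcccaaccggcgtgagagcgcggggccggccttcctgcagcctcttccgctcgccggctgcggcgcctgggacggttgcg
ARF5: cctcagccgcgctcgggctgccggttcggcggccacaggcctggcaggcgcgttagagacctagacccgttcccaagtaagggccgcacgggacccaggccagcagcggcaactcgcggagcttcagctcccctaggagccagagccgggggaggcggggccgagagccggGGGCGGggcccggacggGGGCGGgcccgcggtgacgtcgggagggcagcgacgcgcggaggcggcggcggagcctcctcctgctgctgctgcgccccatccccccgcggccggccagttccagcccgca

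Increased accessibility was spread over all 10 families, with the largest folds at SPCS3 and at an intergenic region assigned to SEC61G. Of the 218 protein-coding genes that RefSeq lists in these families, 69 (31.7%) had at least 1 increased region, where 25.2% of all 20052 protein-coding genes had one. At promoters the numbers were 59 genes (27.1%) in the families and 17.5% of all protein-coding genes. A decreased region was listed at 2 family genes, against a background of 0.818% of all protein-coding genes. By region, 16.4% of the 52675 regions the authors tested were increased and 0.380% were decreased. How many of the tested regions lay at family genes is unknown, so no such share was formed for the members. No test of these shares was made, and the background includes genes with no open chromatin at all. The other 148 family genes were absent from both lists, and a change there below the authors' threshold cannot be seen.

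**Figure D1:**
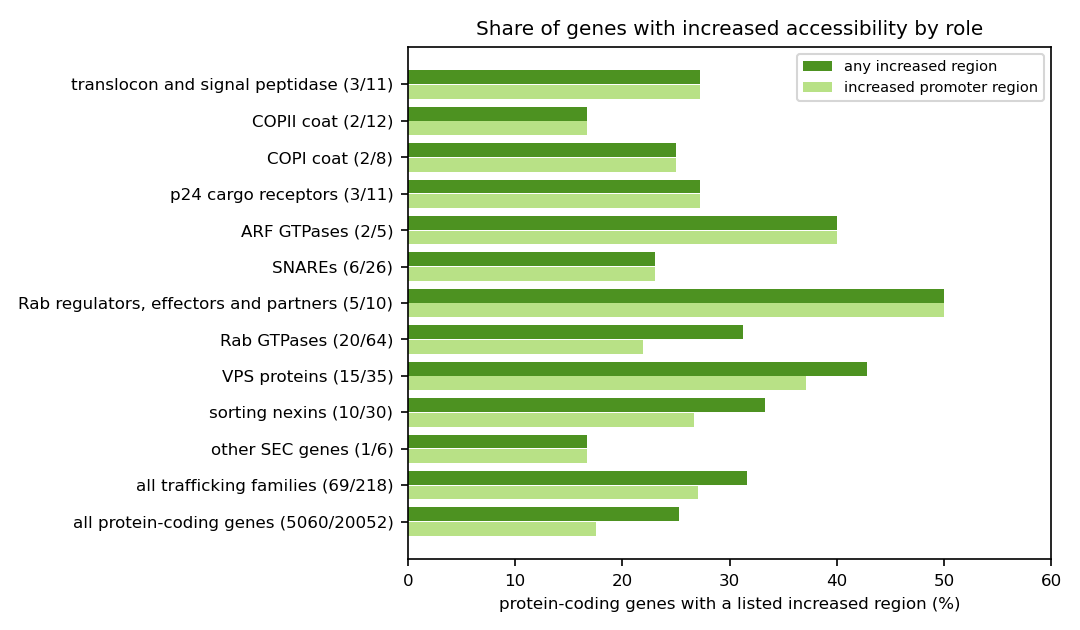
Bars give the percentage of protein-coding genes with any increased region (dark) and with an increased promoter region (light), by role, with the number of genes in parentheses; the lower 2 rows are all 218 family genes and all 20052 protein-coding genes. Rab regulators (5 of 10) and VPS proteins (15 of 35) had the highest and next highest shares of genes among the groups of at least 10 genes, and the COPII coat (2 of 12) the lowest. RAB5IF, among these 5 Rab regulators, was given its role after the values were seen, and the group reaches 10 genes only with it.

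The median log2 fold of the 96 increased member regions was 0.95 (interquartile range 0.81 to 1.13), close to 0.97 (0.84 to 1.12) for all 8615 increased regions. A log2 fold of at least 1 was reached by 40 members (41.7%) and by 43.4% of all increased regions. The FDR was 0.01 or less for 53 members (55.2%) and for 45.9% of all increased regions. The members differed from the list more in where they lay. Promoters held 66 of the 96 (68.8%), against 50.1% of all increased regions, and 55 (57.3%) covered the start itself, against 34.6%. The remainder were 10 regions in gene bodies and 20 intergenic regions.

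In both sets the promoter regions had more reads and smaller folds. The median log2 fold was 0.88 at member promoters and 1.10 at the 30 other member regions, and 0.89 and 1.02 at the corresponding regions of the whole list. Member promoters had median means of 53.2 reads in the knockdown and 24.9 reads in the control. The other member regions had 15.4 reads in the knockdown and 5.05 reads in the control. Only regions past the authors' threshold are listed, and with few reads a larger fold is needed to pass it. The folds of listed regions therefore cannot separate position from read count. A mean over all libraries of under 10 reads underlay 18 of the 96 regions (18.8%), against 26.9% of all increased regions. The control mean lay at the floor of 1 read at SNX25 alone.

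**Figure D2:**
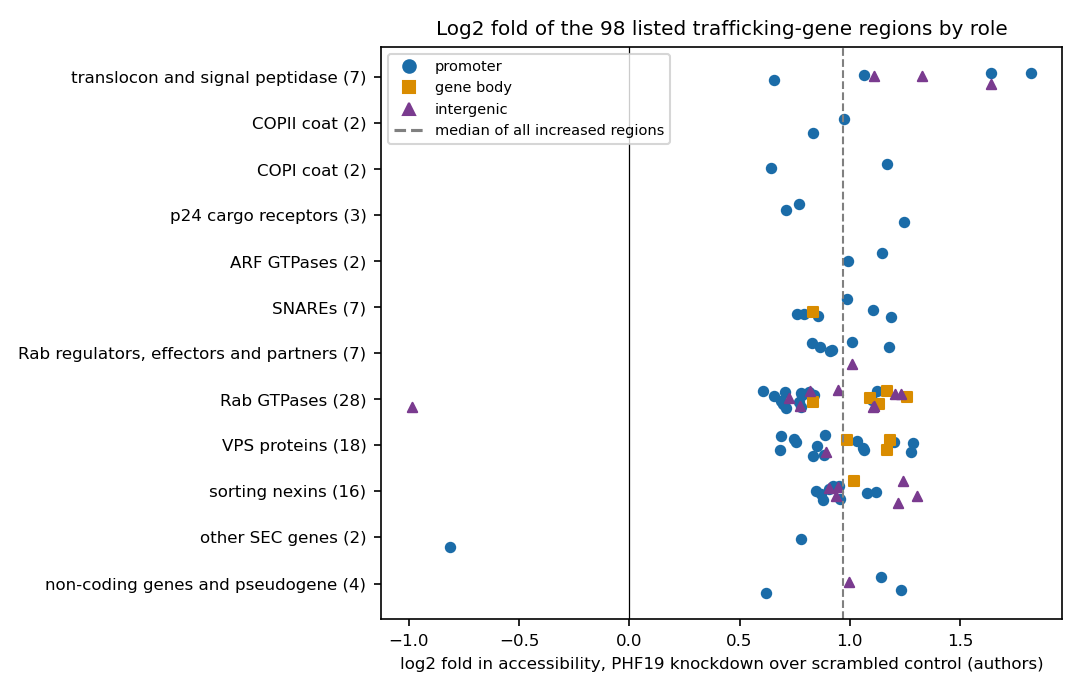
Each point is a listed region at its log2 fold, knockdown over control, by role and by feature class; the dashed line is the median of all increased regions, 0.97. The points farthest right are the SPCS3 regions and the intergenic SEC61G regions 29.3 and 54.2 kb upstream, and the 2 points left of 0 are RAB44 and SEC14L1.

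At the ER entry step, increased regions lay at 3 of 11 genes (27.3%), close to the 25.2% of all protein-coding genes. SPCS3, an accessory subunit of the signal peptidase, had the member region with the largest fold, and by fold it ranked 36 of the 8815 listed regions. This region, 409 bp downstream of the start (chr4:177241499-177241899), had means of 30.7 reads in the knockdown and 5.50 reads in the control (log2 fold 1.82, FDR 1.79e-05 in the authors' deposited table). A neighbouring region over the start, 291 bp away (chr4:177240807-177241207), had 81.2 reads in the knockdown and 22.9 reads in the control (1.64, FDR 1.38e-08). This was the smallest FDR among the members, and the knockdown mean was the higher in both regions.

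SEC61G, the small gamma subunit of the SEC61 channel, had 4 increased regions on chromosome 7. Its promoter region (chr7:54826791-54827191) had 42.5 reads in the knockdown and 17.9 reads in the control, a log2 fold of 1.06. The 3 others were intergenic, 14.9, 29.3 and 54.2 kb upstream, with log2 folds of 1.11, 1.33 and 1.64 in the authors' deposited table. The farthest of them (chr7:54881107-54881706) had 25.1 reads in the knockdown and 5.40 reads in the control (FDR 7.59e-05). These 3 regions are tied to SEC61G by distance alone, and EGFR is the next protein-coding gene on that side in RefSeq. SEC61A1, the pore-forming subunit, had 56.2 reads in the knockdown and 33.4 reads in the control at its promoter, with a small log2 fold of 0.66 (FDR 0.0290). The catalytic signal peptidase subunits SEC11A and SEC11C, and SPCS1, SPCS2, SEC61B, SEC62 and SEC63, had no listed region.

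**Figure D3:**
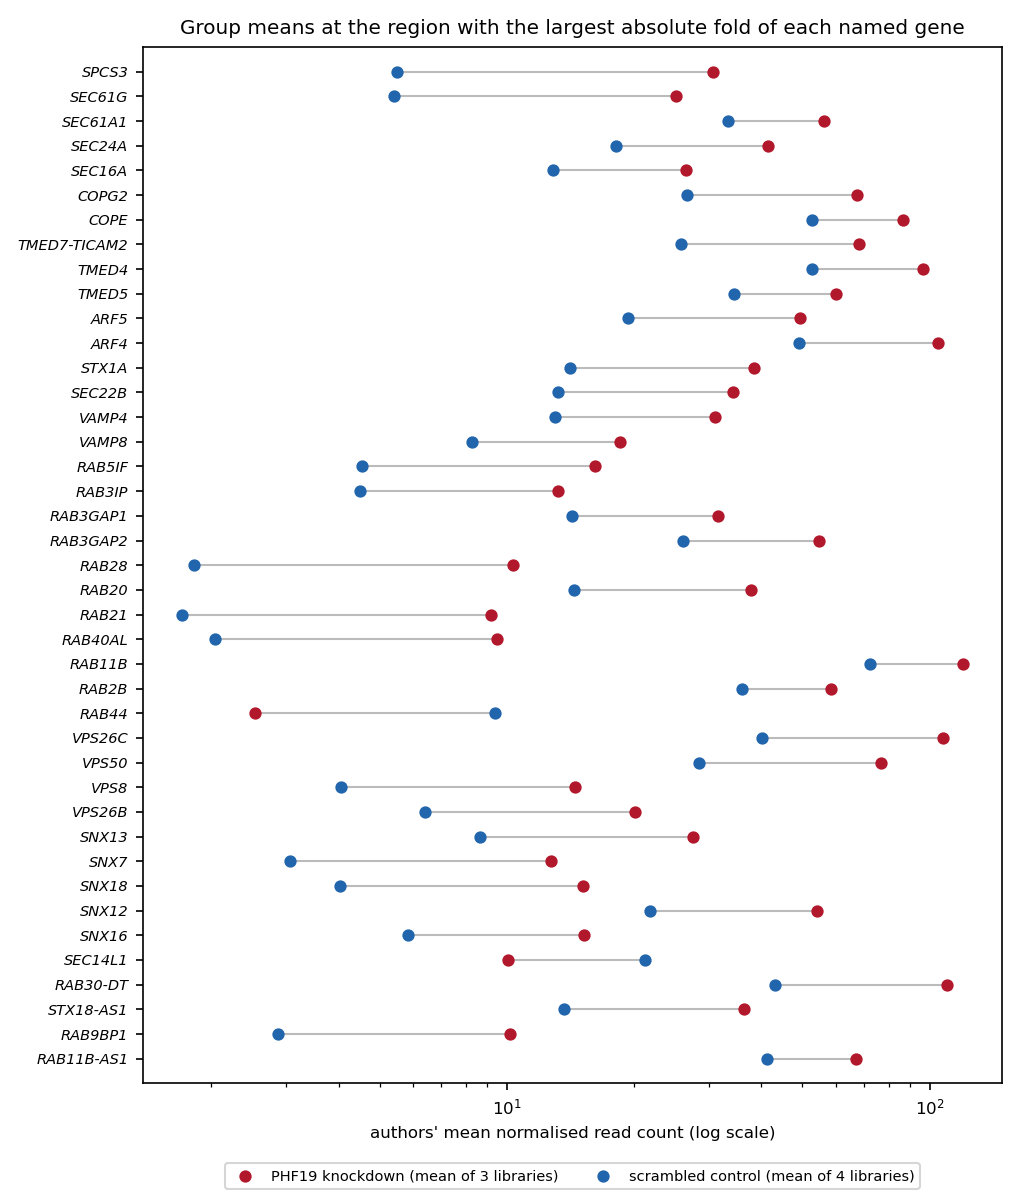
Points give the authors' mean normalised read count (log axis) in the knockdown (red, 3 libraries) and the control (blue, 4 libraries) at the region with the largest absolute fold of each of 41 named genes, joined by a line and ordered by role. The knockdown mean lies to the right everywhere except at RAB44 and SEC14L1, and the widest gaps lie at low counts, such as RAB28 with 10.3 reads in the knockdown and 1.82 reads in the control.

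The listed regions of coat genes were all at promoters over the start. Increased promoters were listed at 16.7% of COPII genes and 25% of COPI genes, against 17.5% of all protein-coding genes. In the COPII coat, 2 of 12 genes had such a region. SEC24A, a cargo-binding subunit, had 41.6 reads in the knockdown and 18.1 reads in the control (log2 fold 0.97, FDR 0.00460, chr5:133984172-133984572). SEC16A, the scaffold of ER exit sites, had 26.6 reads in the knockdown and 12.9 reads in the control (0.83, FDR 0.0265). In the COPI coat, 2 of 8 genes did. COPG2, a gamma subunit, had 67.4 reads in the knockdown and 26.7 reads in the control (1.17, FDR 9e-05, chr7:130353259-130353659). COPE, the epsilon subunit, had 86.5 reads in the knockdown and 52.7 reads in the control, a log2 fold of 0.64 that was among the 5 smallest of the increased members. The paralogue COPG1 and the core subunits COPA, COPB1 and COPB2 were not listed.

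Among the p24 family, 3 of 11 genes had an increased promoter. The largest fold was at TMED7-TICAM2, a read-through gene, with 68.0 reads in the knockdown and 25.8 reads in the control (log2 fold 1.24, FDR 1.35e-05, chr5:114961645-114962045). RefSeq gives TMED7 the same start, so the region cannot be assigned to either gene. TMED4 had 96.4 reads in the knockdown and 52.6 reads in the control (0.77), and TMED5 had 59.9 reads in the knockdown and 34.6 reads in the control (0.71). Both folds lay below the median of all increased regions.

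ARF4 and ARF5, the class II ARF GTPases of the ER-Golgi boundary, both had an increased region over the start, and ARF1, ARF3 and ARF6 had none listed. ARF4 had 105 reads in the knockdown and 49.0 reads in the control (log2 fold 0.99, FDR 6.56e-05, chr3:57583051-57583451). ARF5 had 49.4 reads in the knockdown and 19.4 reads in the control (1.14, FDR 0.000226, chr7:127228208-127228608).

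SNARE genes had increased regions at 6 of 26 members (23.1%), below the 25.2% of all protein-coding genes. Each of the 6 had a promoter region, against 17.5% of all protein-coding genes. STX1A, the plasma membrane syntaxin of neurons and secretory cells, had its region 1359 bp downstream of the start (chr7:73132258-73132658), with 38.4 reads in the knockdown and 14.1 reads in the control (log2 fold 1.18, FDR 0.000451). SEC22B, an ER-Golgi SNARE, had 34.3 reads in the knockdown and 13.2 reads in the control (1.11). RefSeq lists 3 pseudogene copies of SEC22B on the same chromosome, so the origin of these reads is uncertain. VAMP4, of the trans-Golgi network and endosomes, had 31.0 reads in the knockdown and 13.0 reads in the control (0.99). VAMP8, a SNARE of granule and lysosome fusion, had 18.5 reads in the knockdown and 8.28 reads in the control, 783 bp downstream of its start (0.85, FDR 0.0387). STX2 and STX3, plasma membrane syntaxins, had promoter log2 folds of 0.79 and 0.76 in the authors' deposited table.

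Rab GTPases, the switches that give each membrane its identity, had increased regions at 20 of 64 genes (31.25%, against 25.2% of all protein-coding genes). For 14 of them a region lay at the promoter (21.9%, against 17.5%). The Rab promoter regions had a small median log2 fold of 0.77 at 14 regions, on high counts of 74.6 reads in the knockdown and 42.3 reads in the control (medians). At high counts smaller folds can pass the authors' threshold. The highest means were at RAB8A, a GTPase of exocytosis and cilia, with 161 reads in the knockdown and 89.2 reads in the control (0.78, FDR 0.000889). The promoter with the largest fold in the group was that of RAB28, with 73.3 reads in the knockdown and 30.1 reads in the control (1.13, FDR 0.000186, chr4:13485847-13486247). RAB39A, a GTPase of phagosomes and autophagy, had 110 reads in the knockdown and 46.8 reads in the control at a promoter region just upstream of its start (1.10, FDR 5.65e-05).

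Of 14 sets of Rab genes that share a number, 4 had at least 2 members increased, 5 had 1 and 5 had none. All 4 sets were pairs with both genes increased at the start. Gene by gene, 31.25% of Rab genes and 25.2% of all protein-coding genes had an increased region. Whether genes that share a number were increased together more often than these shares give was not tested. RAB1A and RAB1B, of ER-to-Golgi transport, had log2 folds of 0.71 and 0.69, and RAB2A and RAB2B, of Golgi traffic, had 0.71 and 0.60. RAB8A and RAB8B had 0.78 and 0.70. RAB11A and RAB11B, of recycling endosomes, had 0.81 and 0.66 in the authors' deposited table. These regions had means of at least 51.8 reads in the knockdown and 28.7 reads in the control. Whether folds were closer within pairs than among other Rab promoters was not tested. The early endosome genes RAB5A, RAB5B and RAB5C, and the 4 genes numbered RAB6, had no listed region. RAB7A, of late endosomes, had a promoter log2 fold of 0.78, RAB14 one of 0.84 and RAB35 one of 0.77.

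RAB20 had an intronic region with 37.8 reads in the knockdown and 14.4 reads in the control (log2 fold 1.17, FDR 0.000602, chr13:111188641-111189041). RAB21, a GTPase of integrin traffic, had an intronic region with 9.17 reads in the knockdown and 1.71 reads in the control (1.13, FDR 0.0171). RAB27A, of granule secretion, had a promoter region 0.646 kb upstream of the start (0.78) and an intronic region (1.09, chr15:55574410-55575019) with 20.6 reads in the knockdown and 7.18 reads in the control. The 2 regions nearest RAB40AL lay 38.9 and 47.9 kb from it (1.11 and 0.82), and this gene is a close copy of RAB40A. Intergenic regions lay near RAB18 (1.10), RAB3C (0.95) and RAB38 (0.72), 36.8 to 71.4 kb from their starts.

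RAB28 had 5 increased regions, the most of any member. Besides its promoter, 2 lay in introns 52.7 and 68.5 kb into the gene (log2 folds 1.26 and 0.83) and 2 were intergenic, 639 and 851 kb downstream (1.20 and 1.23). The intronic region with the fold of 1.26 rested on 10.3 reads in the knockdown and 1.82 reads in the control (FDR 0.00809). The intergenic pair lies towards HS3ST1, the next protein-coding gene in RefSeq on that side. Of the 74 genes, 58 had a single listed region, 12 had 2, RAB3IP had 3, SEC61G and SNX16 had 4, and RAB28 had 5.

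**Figure D4:**
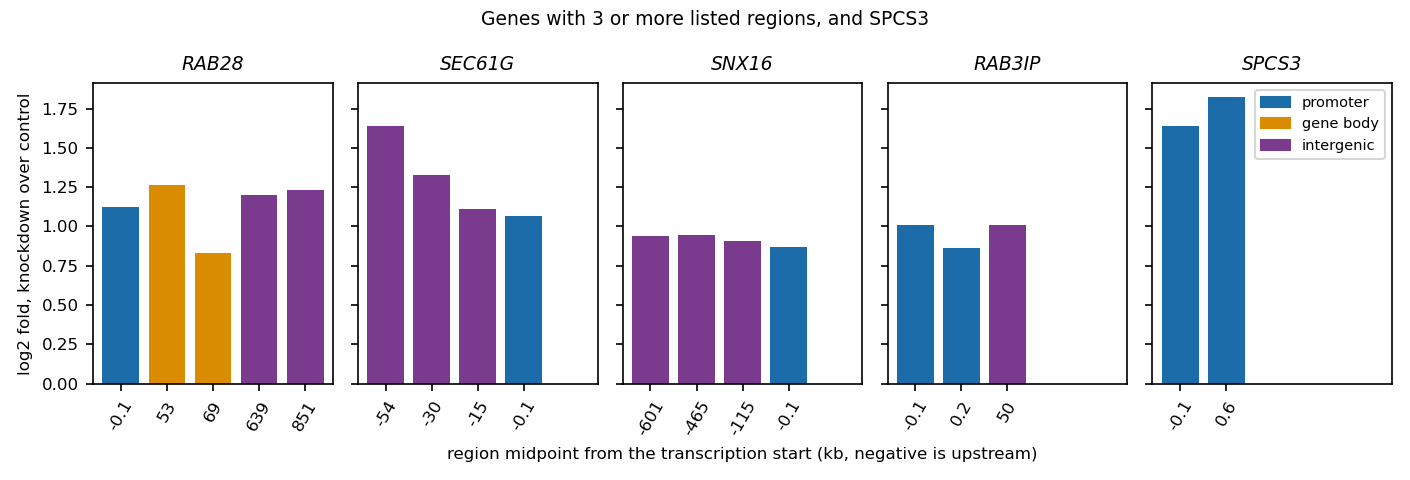
Bars give the log2 fold, knockdown over control, of each listed region of the 4 genes with at least 3 regions and of SPCS3, labelled by the distance of the region's midpoint from the transcription start in kb. Folds at SEC61G run from 1.06 at the promoter to 1.64 at the farthest region, while those at SNX16 lie between 0.87 and 0.95.

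A decreased region lay near RAB44, a large atypical Rab. It was intergenic, 5.25 kb upstream of the start (chr6:36659975-36660375), with 2.54 reads in the knockdown and 9.38 reads in the control (log2 fold −0.99, FDR 0.0377). CDKN1A, the cell-cycle inhibitor p21, is the next protein-coding gene on that side in RefSeq, so the assignment to RAB44 rests on distance.

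The other decrease was at SEC14L1, a phosphatidylinositol-transfer-type protein of the SEC14 family. The decreased region lay 2.64 kb upstream of the start (chr17:75133967-75134367), with 10.1 reads in the knockdown and 21.2 reads in the control (log2 fold −0.81, FDR 0.0419). An increased region lay 0.015 kb upstream of the same start (chr17:75136590-75136990), with 145 reads in the knockdown and 79.5 reads in the control (0.78, FDR 0.00196). The regions are 2222 bp apart and were listed in opposite directions. The decreased one does not pass an FDR of 0.01, so an opposite change at this promoter is uncertain. The knockdown mean of the increased region was exceeded among members by that of RAB8A alone.

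Rab regulators and partners had increased promoters at 5 of 10 genes, against 17.5% of all protein-coding genes. Both subunits of the RAB3 GTPase-activating complex, which also activates RAB18, were among them. RAB3GAP1 had 31.6 reads in the knockdown and 14.3 reads in the control (log2 fold 0.92), and RAB3GAP2 had 54.7 reads in the knockdown and 26.1 reads in the control (0.91). RAB3IP, the exchange factor Rabin8 for RAB8, had 3 regions, of which the main promoter region (chr12:70132325-70132725) had 81.9 reads in the knockdown and 37.1 reads in the control (1.01, FDR 0.000393). RAB5IF, named for an interaction with RAB5, had 16.2 reads in the knockdown and 4.53 reads in the control 0.457 kb upstream of its start (1.18, FDR 0.00751). RAB11FIP1, RAB11FIP3, RAB11FIP4, RAB11FIP5 and RAB3IL1 had none listed, while RAB11FIP2, a RAB11 effector, had a promoter log2 fold of 0.83.

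VPS genes had increased regions at 15 of 35 members (42.9%, against 25.2% of all protein-coding genes). For 13 of them a region lay at the promoter (37.1%, against 17.5%). None had a decreased region, against 0.818% of all protein-coding genes. The largest were VPS26C and VPS50. VPS26C, a subunit of the retriever complex that recycles membrane proteins, had 108 reads in the knockdown and 40.1 reads in the control (log2 fold 1.29, FDR 8.45e-07, chr21:38639633-38640033). VPS50, the subunit that sets the EARP tether of recycling endosomes apart from the GARP tether, had 76.5 reads in the knockdown and 28.5 reads in the control (1.28, FDR 2.5e-06, chr7:92861394-92861794). The subunits that GARP and EARP share, VPS51, VPS52 and VPS53, and the GARP subunit VPS54, had no listed region.

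Complexes were counted by their VPS genes alone, where 25.2% of all protein-coding genes had an increased region. The HOPS and CORVET tethers of late and early endosomes had 3 of 7 genes increased: VPS8 (log2 fold 1.20), VPS18 (0.99, in an exon) and VPS41 (0.76). The VPS8 region lay 2027 bp downstream of the start, with 14.5 reads in the knockdown and 4.05 reads in the control (FDR 0.00746). ESCRT-I, which sorts ubiquitinated cargo, had 3 of its 5 VPS genes, the alternative subunits VPS37A (1.03), VPS37C (1.06) and VPS37D (0.88). Retromer had 2 of 4. They were VPS26B, with a promoter region (0.69, FDR 0.0497) and an intronic one with 20.1 reads in the knockdown and 6.40 reads in the control (1.18), and VPS35, 20.8 kb from its start (0.89). The lipid-transfer proteins VPS13A (0.68 at the promoter and 1.17 in an intron) and VPS13C (1.06) made 2 of 4, and VPS4B, an ATPase that disassembles ESCRT-III, had a log2 fold of 0.89 in the authors' deposited table. VPS33B (0.85) and VPS36 of ESCRT-II (0.75) complete the group.

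Sorting nexins, endosomal proteins with a lipid-binding PX domain, had increased regions at 10 of 30 genes (33.3%, against 25.2% of all protein-coding genes). For 8 of them a region lay at the promoter (26.7%, against 17.5%). SNX13 had the largest fold, at an intergenic region 131 kb downstream of its start (chr7:17729691-17730091), with 27.6 reads in the knockdown and 8.66 reads in the control (log2 fold 1.31, FDR 0.000589). Its promoter had 42.0 reads in the knockdown and 19.1 reads in the control (0.95). SNX12 had 54.2 reads in the knockdown and 21.9 reads in the control at its promoter (1.12, FDR 0.000274, chrX:70288219-70288619). SNX7 (1.24) and SNX18 (1.22) had intergenic regions 133 and 129 kb from their starts, on 12.7 and 15.1 reads in the knockdown and 3.08 and 4.03 reads in the control. SNX16 had a promoter region (0.87) and 3 intergenic regions 114 to 601 kb upstream (0.91 to 0.95).

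The RGS-PX nexins SNX13, SNX14, SNX19 and SNX25, a subfamily singled out after its values were seen, had increased regions at 4 of 4 genes, 3 of them at the promoter. SNX19 had 44.7 reads in the knockdown and 18.4 reads in the control at its promoter (1.08), and SNX14 had 88.1 reads in the knockdown and 44.8 reads in the control over its start (0.88). The remaining gene, SNX25, had an intronic region with 6.66 reads in the knockdown and the floor of 1 read in the control. Of the retromer-linked SNX-BAR nexins, SNX2 (0.90) and SNX5 (0.92), had increased promoters, while SNX1 and SNX6 had no listed region.

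Non-coding members lay beside coding ones. RAB30-DT, the divergent transcript of RAB30, had 110 reads in the knockdown and 43.0 reads in the control (log2 fold 1.23, FDR 7.83e-07, chr11:82782802-82783202). STX18-AS1 had 36.4 reads in the knockdown and 13.7 reads in the control (1.14, FDR 0.00125). RAB11B-AS1 had 67.1 reads in the knockdown and 41.2 reads in the control (0.62), 234 bp from the RAB11B region. In RefSeq each of these 3 starts within 1000 bp of the gene it is named for. RAB30 and STX18 had no region under their own names, so the nearest-gene assignment decides whether these coding genes count as listed. The pseudogene RAB9BP1 had an intergenic region 131 kb away, with 10.2 reads in the knockdown and 2.88 reads in the control.

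**Figure D5:**
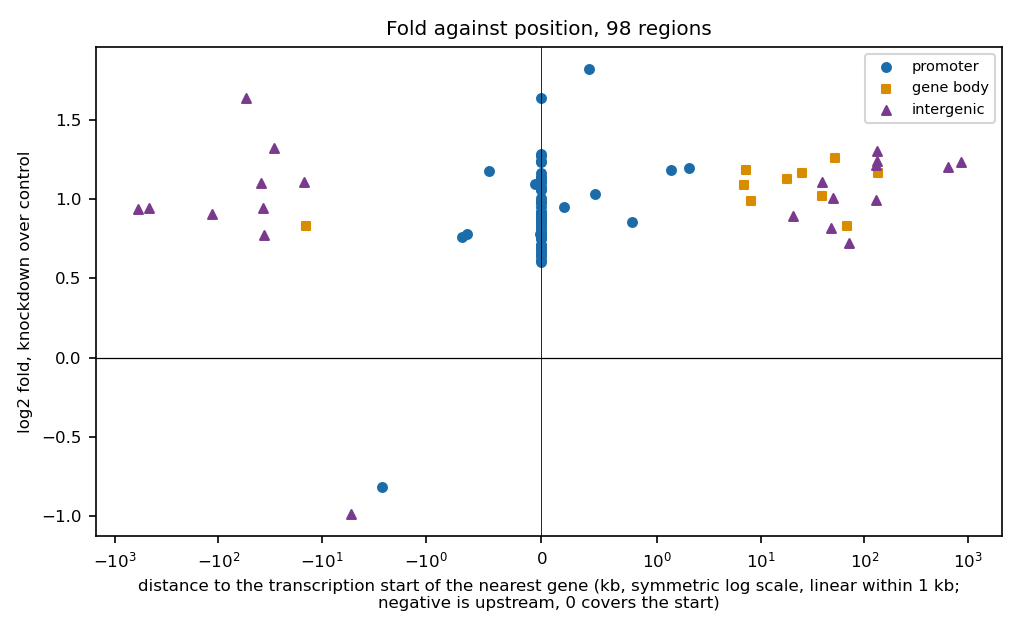
Each point is a listed region at its distance from the nearest transcription start (kb, symmetric log axis, negative upstream, 0 where the region covers the start) and its log2 fold, knockdown over control, by feature class. The column at 0 holds the 55 regions that cover a start, and the 2 points below 0 are the decreased regions.

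Promoter regions of members sat close to the start. Of the 66, 55 covered it, 5 lay upstream and 6 downstream, and the median distance between midpoint and start was 104 bp, against 115 bp over all increased promoter regions. A region was covering the start in 83.3% of member promoter regions and in 69.1% of all. In both sets the regions over the start had a median log2 fold of 0.87, and those beside it had 1.03 at 11 member regions and 0.94 at all such regions. The part of read count in this difference was not tested. Of the 30 other member regions, 10 (33.3%) were more than 100 kb from a start, against 32.5% of the whole list. Close double regions at a promoter were seen at SPCS3, SNX14, VPS37A and RAB3IP.

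Chromosome 7 held 13 of the 96 increased member regions (13.5%), against 12.1% of all increased regions. Of the 12 family genes there, 9 (75%) had an increased region, against 51.5% of the protein-coding genes on that chromosome. Elsewhere the numbers were 60 of 206 (29.1%), against 23.9%. Member promoters on chromosome 7 had a median log2 fold of 1.06 at 9 regions, and those elsewhere 0.86 at 57 regions. For the whole list these medians were 1.01 and 0.88. COPG2, ARF5, STX1A and SNX13, each the largest fold of its role group, lie on chromosome 7, as do SEC61G, TMED4, VPS37D, VPS41 and VPS50. The part of the chromosome in their folds was not tested. Chromosome 22, with 5 family genes, had no increased member region.

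Promoter sequences were available for 50 of the 59 family genes with an increased promoter, for 129 other family genes and for 15842 protein-coding genes in all, taking the first listed RefSeq start. The median GC content was 67.2% in the first set, 65.7% in the other family genes and 62.7% in all genes, and the median number of CpG dinucleotides was 31, 25 and 22. All genes with an increased promoter region had 65.7% and 28. Motifs were searched on both strands. The GC box GGGCGG was present in 78.0% of the promoters of increased members, 74.4% of the other family promoters and 58.5% of all promoters. The CCAAT box CCAAT was in 34.0%, 26.4% and 36.4%, the E-box CACGTG in 14%, 10.9% and 8.88%, and the ETS motif CCGGAAGT in 10.0%, 10.1% and 6.19%. The NRF1 motif was in 22%, 10.1% and 8.57%, and the YY1 motif AAGATGG in 16.0%, 8.53% and 6.40%. Among the 3001 genes of the whole list with an increased promoter region and a sequence, which are the closest set to the members, the shares were 71.2% for the GC box, 35.8% for the CCAAT box, 11.3% for the E-box, 10.4% for the ETS motif, 12.9% for the NRF1 motif and 8.06% for the YY1 motif. Against these, the members' shares were nearer for the GC box, the E-box, the ETS motif, the NRF1 motif and the YY1 motif than against all promoters.

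Each of the remaining motifs was in at most 6 of the 50 promoters of increased members. The RUNX motif TGTGGT was in 12.0%, 9.30% and 10.8%, the AP-1 motif TGANTCA in 4.00%, 6.20% and 5.75%, and the cAMP response element TGACGTCA in 4.00%, 3.10% and 2.59%. In the 3001 genes with an increased promoter region these shares were 9.26%, 3.83% and 3.47%. The unfolded-protein motif TGACGTGG was in 2 of 50 (4%), 9 of 129 (6.98%) and 132 of 15842 (0.833%). The TATAAA box was in 0 of 50, 5 of 129 (3.88%) and 1525 of 15842 (9.63%). The ER stress response element, which contains CCAAT, was in 0 of 50, 0 of 129 and 19 of 15842 (0.120%). The 3001 genes held these in 27 (0.900%), 173 (5.76%) and 5 (0.167%) promoters. The unfolded-protein motif thus had a higher share in family promoters, increased or other, than in either wider set. This rests on 2 and 9 promoters and was not tested. Among the printed promoters, SPCS3 has a CCAAT box and 3 GC boxes, TMED7-TICAM2 the same numbers of both, RAB30-DT a CCAAT box, COPG2 2 GC boxes and a RUNX match, ARF5 2 GC boxes, and VPS50 an E-box whose first letter is 3 bases before the start, so that it runs across the start. A match is a description of the letters and not a bound site. Another protein-coding gene started on the opposite strand within 1000 bp upstream at 6 of the 50 (12.0%), against 16 of 129 other family genes (12.4%). The 6 were RAB27A, RAB2B, SNX5, TMED5, VPS26B and VPS50, where the region cannot be assigned to either gene of the pair.

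Partners of these families outside the symbol rule were described from 9 lists of 225 genes, chosen with results of these data known. An increased region was listed at 87 of them (38.7%, against 25.2% of all protein-coding genes), 77 at the promoter, and a decreased one at 1. The shares were highest for clathrin and its adaptors (17 of 34), regulators of ARF and related GTPases (15 of 31) and ESCRT components (9 of 21). Golgi tethers had 13 of 34, the Rab cycle and exocyst 9 of 25, signal recognition and membrane insertion 8 of 24, the fusion machinery 8 of 25, ER export 5 of 19 and the oligosaccharyltransferase 3 of 12.

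Large folds in these lists lay both at promoters and away from them. CYTH3, an exchange factor for ARF GTPases, had a log2 fold of 1.34 at a promoter region 2.56 kb upstream of the start. That region had 11.1 reads in the knockdown and 1.85 reads in the control. STXBP5, the syntaxin-binding protein tomosyn, had 1.48 at a promoter region, and STXBP6, amisyn, had 1.24 in its gene body, 17.1 kb from the start. The STXBP6 region had 10.9 reads in the knockdown and 2.28 reads in the control. STT3B, a catalytic oligosaccharyltransferase subunit, had its largest fold, 1.46, 306 kb away, and also an increased promoter, and TUSC3, an accessory subunit, had 1.33 in its gene body. The TUSC3 region lay 99.0 kb from the start, with 18.4 reads in the knockdown and 4.86 reads in the control. GOLIM4, a Golgi membrane protein, had its largest fold of 1.34 at an intergenic region, with an increased promoter as well, and COG1, of the COG tether, had 1.14 at its promoter in the authors' deposited table.

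In several of the other lists a promoter region had the largest fold. AP1G1, the gamma subunit of the AP-1 clathrin adaptor, had 45.0 reads in the knockdown and 16.6 reads in the control (log2 fold 1.21), and AP1S3, a small subunit of the same adaptor, had 1.14 in its gene body. SRP19, of the signal recognition particle, had 30.5 reads in the knockdown and 10.9 reads in the control (1.18), and GET4, of tail-anchored protein insertion, had 1.01. CHM, the Rab escort protein, had 27.8 reads in the knockdown and 9.24 reads in the control at its promoter (1.20), and EXOC4, of the exocyst, had its largest fold, 1.32, at an intergenic region beside an increased promoter. TFG (1.06) and MIA3 (1.04), which organise ER exit sites, had increased promoters. The largest folds of UBAP1 of ESCRT-I (1.17) and of PDCD6IP, the ESCRT partner ALIX (1.04), were at intergenic regions, and UBAP1 had an increased promoter as well. The decreased gene was EPN2, an endocytic adaptor, with an intronic region of 2.12 reads in the knockdown and 10.2 reads in the control (−1.09, FDR 0.0215).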

How the data were processed

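ATAC-seq of 3 PHF19 knockdown and 4 scrambled control libraries was deposited as a list of increased and a list of decreased regions. Per the file headers, the authors gave the log2 of mean normalised reads over all libraries and per group, a log2 fold, a p-value and an FDR for each region, with its distance to the nearest gene. Per the submitters' processing notes, MACS2 2.2.6, Bowtie2 2.4.1, deepTools 1.5.12 and Picard 2.2.4 were used, with no role stated. Which differential test and normalisation were applied is not given in the sources used here. Group columns were assigned by header suffix, and the knockdown column's weight in the overall mean, 0.429, equals its share of the libraries. The notes name hg38, but none of the 98 member regions had a gene start or end of GRCh38.p14. The number of tested regions, 52675, was recovered from p-value, rank and FDR, a step tested on simulated data.

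No test was made here, since no value per library was available. Members and lists were chosen with earlier results of these data known. RAB5IF and the non-coding genes were given their role, and VPS genes their complexes, after the values were seen. Genes named include every gene with a decreased region or at least 3 regions, the 4 with the largest fold in each role, the genes of the 5 regions with the largest fold, of the 5 with the smallest and of the 5 with the smallest FDR, and in each partner list the 2 with the largest fold, except 1 that is not reported here. Others named were chosen after their values were seen. All 74 gene identifiers matched RefSeq. Promoters came from RefSeq GRCh38.p14. By the rule 8 were eligible for printing, and genes with several RefSeq starts were left out, as were STX1A and RAB5IF, whose regions do not cover the start. Values were computed with pandas 2.3.3, scipy 1.17.1 and numpy 2.4.6 under Python 3.11.15 and plotted with matplotlib 3.10.9.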

Additional observations from a re-analysis of the deposited data

How the results depend on the processing

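The 96 increased member regions became 53 at an FDR of at most 0.01 and 40 where the log2 fold was 1 or more in size, and 78 and 92 with an overall mean of at least 10 reads and with protein-coding genes alone. The 2 decreased regions became 0 at either stricter threshold and 1 with at least 10 reads. The fold threshold was applied to the deposited log2 fold. As differences of the log2 group means, these regions had −1.89 at RAB44 and −1.08 at SEC14L1. The 69 genes with an increased region became 44 (20.2%, against 13.9% of all protein-coding genes) at the stricter FDR and 30 (13.8%, against 11.3%) at the larger fold, and 59 to 60 with promoters, within 10 kb of a start or without chromosome 7. The median log2 fold of 0.948 was 1.19 as the difference of group means, 0.974 over the largest region of each gene, 0.88 at promoters and 0.885 with at least 10 reads. The promoter share of 68.8% fell to 55% at the larger fold. The cause of these shifts was not tested, beyond fewer regions passing a stricter threshold. No paired analysis was possible because the files hold group means and no value per library, and for the same reason no replicate could be left out. How far the excess of increases rests on the authors' normalisation was not tested. The depth of each library is unknown here, and decreases at low counts may have gone undetected.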
